A study of Mus musculus with 24 samples.

Results

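RNA of the C1galt1c1 knockout line of MC38 (MC38-COSMC KO) was compared with RNA of the unmodified line (MC38-WT), over every gene with at most 4 zeros among the 6 samples of both lines. This rule kept 21843 of the 52636 genes in the table, while 25291 had a value above 0 in any of the 6 samples. MC38 is a colorectal cancer cell line of the mouse strain C57BL/6, and the whole series holds 24 samples of 8 MC38 lines. MC38-COSMC KO was made with CRISPR-Cas9, grown with puromycin and harvested at passages 4, 5 and 6. Per the study's methods it is not a single clone but a bulk of cells sorted for high binding of the lectin HPA. MC38-WT received no construct and no puromycin and was harvested at passages 7, 8 and 9. MC38-MOCK#1, given for reference, carried an empty CRISPR/Cas9 construct, grew with puromycin and was harvested at passages 4, 5 and 6. Passage, puromycin, transfection and sorting therefore cannot be told apart from the loss of C1galt1c1 between MC38-COSMC KO and MC38-WT. The samples of a line are harvests of 1 culture lineage at different passages, so that the p-values measure the spread between harvests.

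C1galt1c1 encodes Cosmc, the chaperone that T-synthase (C1galt1) needs in order to fold in the endoplasmic reticulum. T-synthase adds galactose to the GalNAc that starts a mucin type O-glycan, and GalNAc-transferases add that first GalNAc to serine or threonine. Without Cosmc the glycan stops at the GalNAc, which is the Tn antigen, and the enzymes that branch or cap the core 1 structure find little substrate. The comparison asks which transcripts differ in cells whose O-glycans are shortened in this way.

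Values are normalized counts, which are read counts per gene scaled by a factor for each library and rounded to whole numbers. Their totals lay between 11170653 and 11687830 in these 6 samples. An estimate from the spacing of the rounded values gave 10938169 to 14369918 reads per sample in MC38-COSMC KO and 6759429 to 11847752 in MC38-WT, so that a single read amounts to 0.8055 to 1.67 normalized counts. Markers of intestinal epithelium were almost absent in spite of the colorectal origin of the line. Cdh1 lay between 0 and 2 normalized counts, Krt8 between 3 and 8 and Krt18 at 0 or 1 in the 6 samples, and the summed level of all 14 epithelial markers was 16 to 22 in MC38-COSMC KO and 16 to 21 in MC38-WT. Vim, a mesenchymal intermediate filament gene, had 22334 to 29871 normalized counts. The 14 leukocyte markers summed to 53 to 57 in MC38-COSMC KO and 27 to 80 in MC38-WT, most of it Cd68, and the 8 endothelial markers summed to 2 to 16 in all 6 samples. All 37 mitochondrial genes were listed at 0 in all 24 samples, so that mitochondrial transcripts could not be compared.

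The targeted gene C1galt1c1 (ENSMUSG00000048970, chromosome X of GRCm38, 38630785 to 38635087, minus strand) had 145, 163 and 124 normalized counts in MC38-COSMC KO and 208, 202 and 244 in MC38-WT. All 3 knockout values lay below all wild-type values. The log2 fold change was -0.60 (standard error 0.146), which did not pass the threshold (limma adjusted p = 0.129), while a fit that takes the spread from all 8 lines gave an adjusted p of 0.0201. MC38-MOCK#1 had 242, 220 and 251. Counts over the whole gene include transcripts with small insertions or deletions, so they do not measure the loss of the protein. C1galt1 itself (ENSMUSG00000042460, chromosome 6, 7844842 to 7875687, plus strand) had 336, 344 and 302 in MC38-COSMC KO and 334, 415 and 455 in MC38-WT. These groups overlapped and the log2 fold change of -0.28 (standard error 0.131) did not pass (limma adjusted p = 0.382).

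Of the 21843 genes tested, 127 differed between MC38-COSMC KO and MC38-WT at an adjusted p below 0.05 (limma on log2 of the value plus 1), which is 0.581% of the genes. In the knockout line 50 genes were higher (0.229%) and 77 lower (0.353%), and 117 of the 127 are protein coding. These genes are called DEGs here. Their log2 fold changes ran from -6.28 to 4.36, with a median of 1.13 among the higher and -1.82 among the lower genes, against a median of 0.01 over all genes tested. More than 2-fold changes were found for 28 of the higher and 60 of the lower DEGs. The values of both lines did not overlap for all 127 DEGs and for 17.3% of all genes tested. At an unadjusted p below 0.05, 3100 genes (14.2%) differed. The number of DEGs changed with the samples in the fit, for reasons that were not tested. With all 8 lines in a single fit 945 genes passed (4.33%), 501 higher (2.29%) and 444 lower (2.03%), among them 125 of the 127, whereas leaving out any single sample left 0, 1 or, without MC38-WT sample 1, 33 genes.

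**Figure D1:**
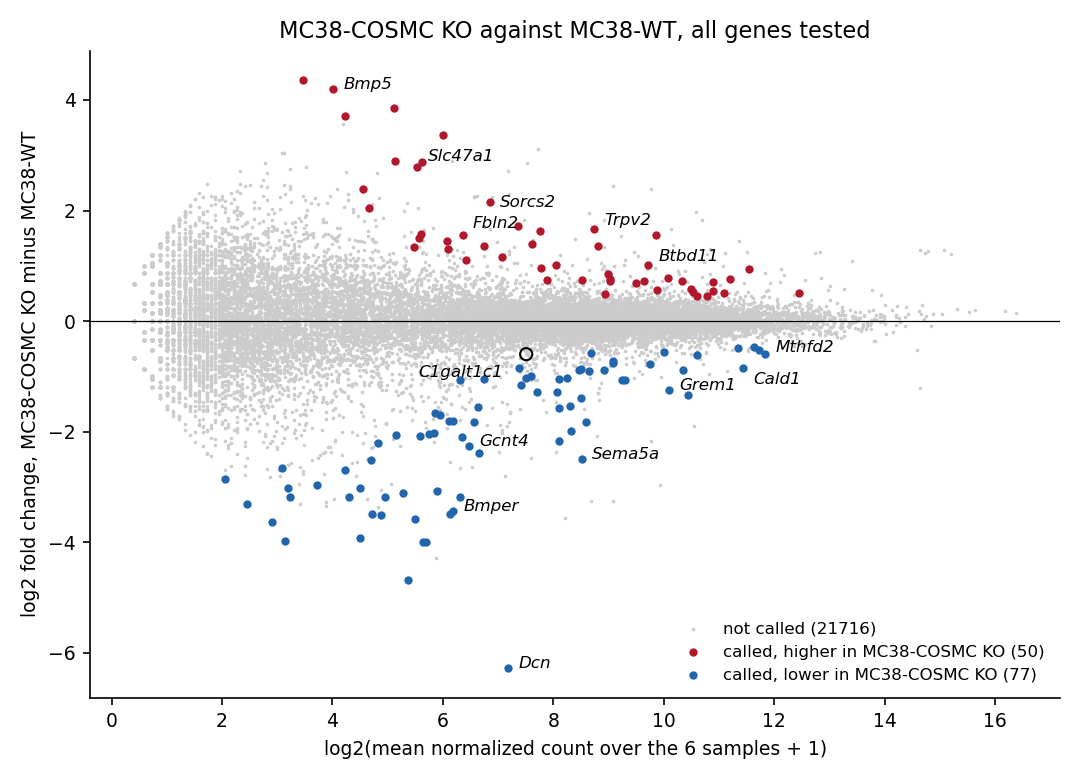
Log2 fold change between MC38-COSMC KO and MC38-WT (vertical axis) against the mean level over the 6 samples on a log2 scale (horizontal axis) for the 21843 genes tested, one point per gene. The 50 DEGs that were higher in the knockout line are red, the 77 that were lower are blue, and C1galt1c1, circled at -0.60, is not a DEG. Large changes sit at low and medium levels, led by Dcn at -6.28.

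Predicted genes (Gm or Rik) aside, the largest changes among higher DEGs with at least 30 normalized counts in the knockout line were in genes of varied kinds. They include genes of transporters, signalling proteins and a transcription cofactor. Slc52a3, a riboflavin transporter, had 67, 54 and 62 normalized counts in MC38-COSMC KO and 6, 8 and 8 in MC38-WT (log2 fold change 2.90, standard error 0.285, limma adjusted p = 0.00883). Dnhd1, which encodes a dynein heavy chain domain protein, had 82, 90 and 84 against 12, 8 and 13 (2.87, standard error 0.269, limma adjusted p = 0.00767). MC38-MOCK#1 lay above the knockout line for Slc52a3, with 109 to 162, and overlapped it for Dnhd1, with 88 to 131. Slc47a1, the gene of an exporter of organic cations, had 99, 83 and 58 against 8, 12 and 12 (2.78, standard error 0.308, limma adjusted p = 0.015). Here MC38-MOCK#1 had 8, 1 and 3 and thus sided with MC38-WT. Of the 10 drug efflux transporters tested, Slc47a1 was the single DEG, against 0.581% of all genes tested. The list had a median log2 fold change of 0.38. Slc5a1, the sodium-glucose cotransporter, had 55, 30 and 35 against 10, 8 and 8 (2.04, limma adjusted p = 0.0488). Ptpru, a receptor type tyrosine phosphatase, had 74, 56 and 78 against 23, 25 and 23 (1.498, limma adjusted p = 0.0371). For both genes the MC38-MOCK#1 values, 26 to 38 and 60 to 82, overlapped those of MC38-COSMC KO. A further 4 DEGs with predicted names (Gm or Rik) showed increases as large as those of the 12 genes named by size. Gm40652 at 3.86, 4933423P22Rik at 3.71 and Gm48358 at 3.37 exceeded all of the 12.

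A second set of higher DEGs exceeded not only MC38-WT but each of the 21 samples of the 7 other lines. Lmo1, a LIM domain transcription cofactor, had 40, 35 and 39 normalized counts in MC38-COSMC KO, 4, 8 and 8 in MC38-WT and 0 in all 3 samples of MC38-MOCK#1 (log2 fold change against MC38-WT 2.40, limma adjusted p = 0.0349). Sorcs2, a sorting receptor of the sortilin family, had 156, 202 and 205 against 44, 38 and 42, with 0 to 3 in MC38-MOCK#1 (2.15, standard error 0.175, limma adjusted p = 0.00505). Hectd2, a ubiquitin ligase gene, had 266, 265 and 214 against 48, 107 and 80 (1.72, limma adjusted p = 0.0415). The knockout values of these genes stood apart, and the highest value among the 15 samples of the lines other than MC38-WT and MC38-MOCK#1 was 5 for Lmo1, 53 for Sorcs2 and 172 for Hectd2. Trpv2, a cation channel gene, had 738, 609 and 587 against 183, 239 and 187 (1.67, standard error 0.14, limma adjusted p = 0.00505). Slc6a17, a transporter of neutral amino acids into synaptic vesicles, had 323, 307 and 344 against 123, 116 and 79 (1.63, limma adjusted p = 0.0145). Ptpn18, a cytoplasmic tyrosine phosphatase, had 68, 79 and 68 against 29, 22 and 20 (1.57, limma adjusted p = 0.0349). MC38-MOCK#1 lay between both lines for Trpv2 at 289 to 334 and for Slc6a17 at 122 to 170 with 1 value inside the wild-type range.

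The lower DEGs reached larger changes, and the first among them is a matrix gene. Dcn, which encodes the collagen binding proteoglycan decorin, had 6, 4 and 0 normalized counts in MC38-COSMC KO and 129, 417 and 304 in MC38-WT (log2 fold change -6.28, standard error 0.739, limma adjusted p = 0.0162). It was at 0, 1 and 2 in MC38-MOCK#1 and reached at most 125 in the 5 remaining lines, so that MC38-WT exceeded every other sample. Stra6, the receptor that takes up retinol from its carrier in blood, had 6, 3 and 6 against 92, 111 and 75 (-3.99, standard error 0.341, limma adjusted p = 0.00505). The empty construct line also had few counts of Stra6, 0 to 9.

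Ion transport and intracellular signalling genes were among the lower DEGs too. Kcnj2, an inward rectifier potassium channel gene, had 2, 6 and 4 against 47, 57 and 55 (log2 fold change -3.51, limma adjusted p = 0.0156), and MC38-MOCK#1 stayed nearer to MC38-WT with 35, 31 and 32. Slc4a5, a sodium bicarbonate cotransporter gene, had 5, 3 and 2 against 37, 62 and 42 (-3.49, limma adjusted p = 0.0162). Plcb1, the gene of phospholipase C beta 1, had 12, 12 and 6 against 65, 146 and 171 (-3.49, limma adjusted p = 0.0163). In contrast to Kcnj2, the latter genes were low in MC38-MOCK#1 as well, at 1 to 4 for Slc4a5 and 4 to 5 for Plcb1. Ky, a gene known from muscle, had 7, 4 and 4 against 60, 111 and 119 (-4.00, limma adjusted p = 0.00767). Tmem176b, a membrane protein gene, had 14, 6 and 2 against 65, 96 and 82 (-3.57, limma adjusted p = 0.0368). Megf10, a receptor in the engulfment of dying cells, had 4, 2 and 2 against 16, 48 and 40 (-3.19, limma adjusted p = 0.0417). Capn6, a calpain without protease activity, had 28, 7 and 13 against 87, 190 and 142 (-3.18, limma adjusted p = 0.0355). No predicted gene changed as much in this direction at that level. MC38-MOCK#1 overlapped the knockout line for Megf10, with 2 to 6, and for Capn6, with 13 to 18. It lay above the knockout line for Ky, with 12 to 18, and for Tmem176b, with 15 to 47. For Megf10 MC38-WT exceeded every other sample.

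**Figure D2:**
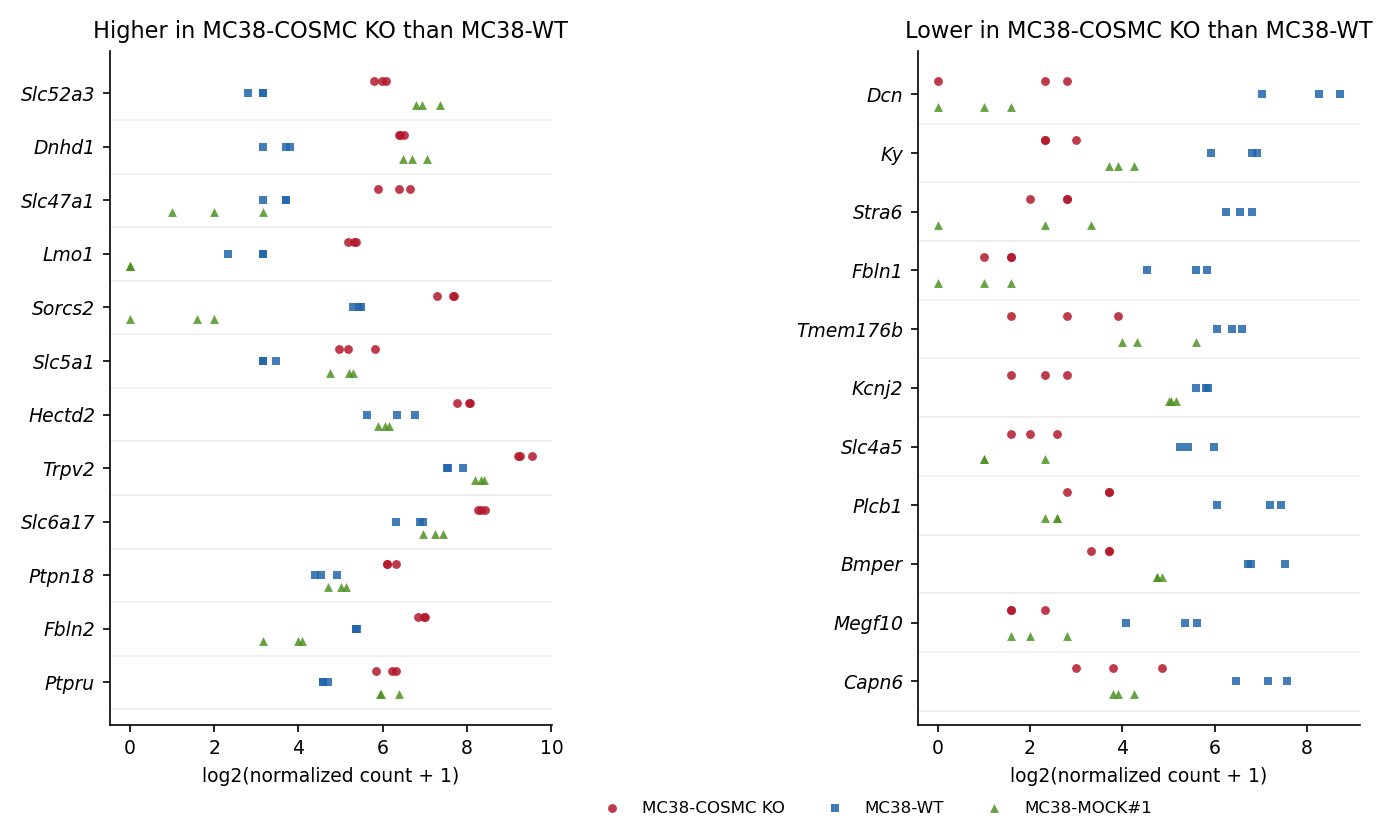
Normalized counts of each sample, as log2 of the value plus 1 (horizontal axis), by gene (vertical axis). Shown are the 12 higher (left) and 11 lower (right) DEGs with the largest changes that are reported here, without predicted genes (Gm or Rik). Red circles are MC38-COSMC KO, blue squares MC38-WT and green triangles MC38-MOCK#1, with 3 samples each and coinciding values drawn on top of each other. The red and blue points of no gene overlap, while the green ones lie on the side of the knockout line for Slc52a3 and Dcn and on that of the wild type for Slc47a1 and Hectd2.

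Over all 127 DEGs, the 3 knockout values lay beyond all 21 other samples for 34 genes, 21 above and 13 below, whereas this held for 0.806% of all genes tested. MC38-WT lay beyond all 21 other samples for 6 DEGs, 5 above and 1 below, against 0.279% of the genes tested. These shares are not independent of the choice of DEGs, since both lines have to stand apart from each other to be called. The lower genes of this kind with at least 30 normalized counts include cell surface and signalling genes. Sema5a, a semaphorin, had 139, 100 and 79 in MC38-COSMC KO and 374, 850 and 639 in MC38-WT (log2 fold change -2.50, standard error 0.307, limma adjusted p = 0.0163), and its lowest value among the 5 further lines was 189. Pcdh18, a protocadherin, had 196, 142 and 170 against 547, 717 and 535 (-1.82, limma adjusted p = 0.00549). Lpar1, a receptor of lysophosphatidic acid, had 33, 33 and 22 against 74, 147 and 100 (-1.80, limma adjusted p = 0.0488). MC38-MOCK#1 stayed above the knockout line in each of them, at 145 to 240 for Sema5a, 420 to 660 for Pcdh18 and 57 to 105 for Lpar1. Prkg2, a cGMP dependent protein kinase, had 172, 130 and 112 against 330, 431 and 473 (-1.58, limma adjusted p = 0.0163). Klhl13, an adaptor of a ubiquitin ligase, had 26, 16 and 12 against 69, 87 and 72 (-2.08, limma adjusted p = 0.0349).

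O-glycan enzymes were examined next, because the targeted chaperone acts in their pathway. Of 19 genes of core 1 synthesis, branching and capping, 14 could be tested and 12 had a negative log2 fold change, against 45.1% of all genes tested, with a list median of -0.24. A single member fell past the threshold, against 0.353% of all genes tested. Gcnt4, which encodes an enzyme that starts the core 2 branch on core 1, had 26, 31 and 31 normalized counts in MC38-COSMC KO and 126, 148 and 162 in MC38-WT (log2 fold change -2.27, standard error 0.189, limma adjusted p = 0.00505). All other lines were above the knockout line, with 65, 70 and 80 in MC38-MOCK#1 and 49 to 211 in the 5 further lines. In the fit of all 8 lines C1galt1c1 was the second member called. The more widely used core 2 enzyme gene Gcnt1 changed by -0.09 (standard error 0.122) and the sialyltransferase gene St3gal1 by -0.20 (standard error 0.136), neither of which passed. Among the GalNAc-transferases, 11 of 19 could be tested, 5 had a higher and 5 a lower mean, and none passed with the list median at 0.00. Galnt10 had the smallest p with 691, 640 and 634 against 536, 611 and 535 (0.23, limma adjusted p = 0.309). Galnt1 followed with 712, 760 and 742 against 813, 800 and 901 (-0.18, limma adjusted p = 0.373). Galk2, the gene of a GalNAc kinase that salvages free GalNAc, was picked after its values were seen. It fell from 490, 600 and 482 to 291, 266 and 279 (-0.90, limma adjusted p = 0.0173).

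Matrix genes moved in both directions. Of 50 collagens and matrix proteins tested, 2 were higher and 3 lower DEGs, against 0.229% and 0.353% of all genes tested. The list median was -0.03. Fbln2, which encodes fibulin-2, had 124, 113 and 127 normalized counts in MC38-COSMC KO and 40, 41 and 40 in MC38-WT (log2 fold change 1.56, standard error 0.164, limma adjusted p = 0.0123). Its relative Fbln1 went the other way, with 2, 1 and 2 against 22, 56 and 47 (-3.92, limma adjusted p = 0.0163). Thbs1, the gene of the matrix glycoprotein thrombospondin-1, had 33, 31 and 26 against 108, 242 and 157 (-2.38, limma adjusted p = 0.0163). Together with Dcn, both Fbln1 and Thbs1 were as low in MC38-MOCK#1, at 0 to 2 and 18 to 32. Col4a1, a basement membrane collagen, was the other higher DEG (0.50, limma adjusted p = 0.0312), and the neighbouring Col4a2 had 3798, 4322 and 4369 against 2952, 3273 and 2935 (0.45, limma adjusted p = 0.0802). Fibrillar collagens did not pass. Col3a1 had 88, 58 and 57 against 135, 322 and 145 (-1.47, limma adjusted p = 0.114) and Col1a2 had 53, 34 and 62 against 94, 131 and 87 (-1.07, limma adjusted p = 0.136). Of 10 mesenchymal and fibroblast markers tested, Dcn was the single DEG, against 0.581% of all genes tested, and the median was -0.58. None of the 19 matrix metalloproteinases and inhibitors tested passed, with a median of -0.16. Timp3 had the smallest p among them, with 761, 943 and 877 against 519, 615 and 697 (0.50, limma adjusted p = 0.144), and was at 4 or 5 in MC38-MOCK#1. Mmp15 had 6, 3 and 7 against 0, 0 and 2 (2.07, limma adjusted p = 0.175). Among DEGs with a role in the matrix that are outside these lists, picked after their values were seen, Adamtsl4 had 643, 650 and 630 against 175, 313 and 284 (1.36, limma adjusted p = 0.0328) and exceeded all 21 other samples. Nid2, a basement membrane component, had 343, 346 and 367 against 150, 209 and 169 (1.01, limma adjusted p = 0.0265). Emilin1, an elastic fibre protein, had 158, 123 and 101 against 387, 697 and 455 (-1.98, limma adjusted p = 0.0163).

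Bone morphogenetic proteins are secreted ligands whose range is set by binding proteins such as gremlin. Of 29 ligands, inhibitors and targets of BMP and TGF-beta signalling tested, 1 rose and 2 fell, with a median of -0.23. Over all genes tested 0.229% were higher and 0.353% lower DEGs. Bmp5 had 41, 29 and 19 normalized counts in MC38-COSMC KO and 1, 1 and 0 in MC38-WT (log2 fold change 4.21, standard error 0.494, limma adjusted p = 0.0162). The wild-type values rest on an estimated 2 reads in all against 99 in the knockout line, which gives a ratio of 37.1 with a 95% exact interval of 10.0 to 311 for counting error only. Bmper, which binds BMPs outside the cell, had 12, 12 and 9 against 105, 184 and 110 (-3.44, standard error 0.29, limma adjusted p = 0.00505). Grem1, the BMP antagonist gremlin-1, had 544, 617 and 761 against 1161, 1697 and 1766 (-1.25, standard error 0.18, limma adjusted p = 0.0303). The lines differed widely in Grem1, which was at 19, 13 and 14 in MC38-MOCK#1 and between 59 and 4676 in the 5 further lines.

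Genes of epithelial to mesenchymal transition, cadherins and the cytoskeleton had a median of -0.02 over 24 tested members. The list held 1 higher and 1 lower DEG, against 0.229% and 0.353% of all genes tested. Cdh2, which encodes N-cadherin, had 296, 292 and 289 normalized counts in MC38-COSMC KO and 172, 187 and 167 in MC38-WT (log2 fold change 0.74, standard error 0.104, limma adjusted p = 0.0289), while MC38-MOCK#1 was higher still at 393 to 433. Cald1, the gene of the actin binding protein caldesmon, had 2176, 1932 and 1816 against 3106, 3859 and 3662 (-0.84, standard error 0.106, limma adjusted p = 0.0181). No other sample of the series was as low as these Cald1 values. None of the 18 integrin subunits tested passed (median 0.09). Itgb7 came nearest with 2, 1 and 2 against 22, 14 and 10 (-2.57, limma adjusted p = 0.0601), followed by Itgb4 with 40, 42 and 37 against 60, 105 and 80 (-0.99, limma adjusted p = 0.129).

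Mthfd2 and Asns, enzymes of folate and amino acid metabolism, fell by small but well separated amounts. Of 32 genes of the ER stress and amino acid response tested, 26 had a negative log2 fold change, against 45.1% of all genes tested. The median was -0.19, and 2 members fell past the threshold, against 0.353% of all genes tested. Mthfd2, a mitochondrial folate enzyme, had 2742, 2940 and 3014 normalized counts in MC38-COSMC KO and 4480, 4409 and 4251 in MC38-WT (log2 fold change -0.60, standard error 0.0719, limma adjusted p = 0.0163). Asns, the gene of asparagine synthetase, had 2825, 2746 and 2804 against 3770, 4370 and 3855 (-0.52, standard error 0.0795, limma adjusted p = 0.0381). The knockout values of both genes were below all 21 other samples, and for Asns the wild-type values were also above all of them, with MC38-MOCK#1 between at 3006 to 3695. Psat1, a serine synthesis enzyme picked after its values were seen, did not pass with 3665, 3875 and 3950 against 5041, 4799 and 4880 (-0.36, limma adjusted p = 0.0814). Atf4, the transcription factor of this response, changed by -0.21 (standard error 0.0962, limma adjusted p = 0.369), and Ddit3, which encodes CHOP, by 0.69 (standard error 0.191, limma adjusted p = 0.167).

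ATF4 with C/EBP partners binds composite elements in promoters of this response. The 250 bases before the annotated start, from RefSeq on GRCm38.p6 and written on the strand of the gene, are shown for both DEGs. Capitals mark matches to TGATGNAA, searched on both strands. Asns (chr6:7693210-7693459, minus strand) holds 1 match, 23 bases before the start, and Mthfd2 (chr6:83317605-83317854, minus strand) holds none in this window.
Asns: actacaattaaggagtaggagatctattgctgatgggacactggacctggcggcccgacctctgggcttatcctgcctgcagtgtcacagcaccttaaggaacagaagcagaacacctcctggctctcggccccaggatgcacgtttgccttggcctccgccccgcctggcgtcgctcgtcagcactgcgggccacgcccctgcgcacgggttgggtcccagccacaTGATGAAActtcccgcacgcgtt
Mthfd2: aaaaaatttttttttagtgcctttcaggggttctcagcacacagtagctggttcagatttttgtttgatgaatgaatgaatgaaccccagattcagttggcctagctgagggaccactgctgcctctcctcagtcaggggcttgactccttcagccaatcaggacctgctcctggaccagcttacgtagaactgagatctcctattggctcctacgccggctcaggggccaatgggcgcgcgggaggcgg
Of the 29 list members with a promoter in the table, 8 held a match, while 3.45% of 32851 promoters did. A match describes the letters only.

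Interferon-induced genes encode antiviral effectors and sensors that are switched on by interferon receptors, and MC38 cells express them in culture. Of 52 such genes, all tested, 51 had a negative log2 fold change against 45.1% of all genes tested, and the median was -1.05. None passed the adjusted threshold, 22 had a lower level at an unadjusted p below 0.05 (6.29% of all genes tested), and 5 passed in the fit of all 8 lines, namely Oasl1, Ifit1, Cxcl10, Ifi204 and Apobec3. Oasl1, a member of the oligoadenylate synthetase family, had 181, 87 and 45 normalized counts in MC38-COSMC KO and 446, 1509 and 955 in MC38-WT (log2 fold change -3.26, standard error 0.544, limma adjusted p = 0.05002). Ifit1, which binds foreign RNA, had 36, 15 and 7 against 57, 336 and 214 (-3.26, standard error 0.717, limma adjusted p = 0.105). These values did not overlap between the lines but varied several fold within each of them. The following genes were picked after their values were seen. Isg15, a ubiquitin-like modifier, had 113, 51 and 41 against 121, 949 and 298 (-2.37, limma adjusted p = 0.182). For Irf7, a transcription factor of the response, the values of 37, 24 and 10 lay inside the wild-type range of 6, 222 and 47 (-0.95, limma adjusted p = 0.75).

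The size of this difference depended on single harvests. On the log2 scale the mean level of the 52 genes was 6.35, 5.82 and 5.32 in MC38-COSMC KO and 5.83, 8.45 and 7.31 in MC38-WT, so that MC38-WT sample 1 lay inside the range of the knockout line. MC38-MOCK#1 had 6.60, 6.71 and 7.94. Without MC38-WT sample 2 the median log2 fold change of the list was -0.51 and 43 of 52 members were negative, and without MC38-WT sample 1 it was -2.13. The 3 samples differ in passage, and its part in the result cannot be told apart from other differences between the harvests. Genes of this list whose promoters carry the interferon response element are shown by the 250 bases before the start (RefSeq, GRCm38.p6, strand of the gene), with capitals for matches to GAAA, any 2 bases and GAAA again on either strand. Ifit1 (chr19:34640639-34640888, plus strand) has 2 matches, Isg15 (chr4:156200819-156201068, minus strand) has 3 that overlap each other, and Cxcl10 (chr5:92348890-92349139, minus strand) has 1.
Ifit1: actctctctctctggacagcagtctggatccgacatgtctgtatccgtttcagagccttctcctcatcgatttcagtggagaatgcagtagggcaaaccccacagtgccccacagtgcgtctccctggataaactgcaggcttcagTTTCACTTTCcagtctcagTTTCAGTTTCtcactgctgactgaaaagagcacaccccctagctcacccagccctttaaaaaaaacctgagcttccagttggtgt
Isg15: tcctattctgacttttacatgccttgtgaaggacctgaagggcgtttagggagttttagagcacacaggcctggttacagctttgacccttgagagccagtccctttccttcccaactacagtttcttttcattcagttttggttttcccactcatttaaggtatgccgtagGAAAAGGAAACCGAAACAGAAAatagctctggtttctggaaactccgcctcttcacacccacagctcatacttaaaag
Cxcl10: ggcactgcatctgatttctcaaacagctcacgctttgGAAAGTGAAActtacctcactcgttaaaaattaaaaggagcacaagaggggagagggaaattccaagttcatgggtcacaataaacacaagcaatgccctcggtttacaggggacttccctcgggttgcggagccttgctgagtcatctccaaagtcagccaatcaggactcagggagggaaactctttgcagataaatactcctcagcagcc
The motif was found in 20 of the 39 list members with a promoter in the table and in 2.98% of all 32851 promoters.

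**Figure D3:**
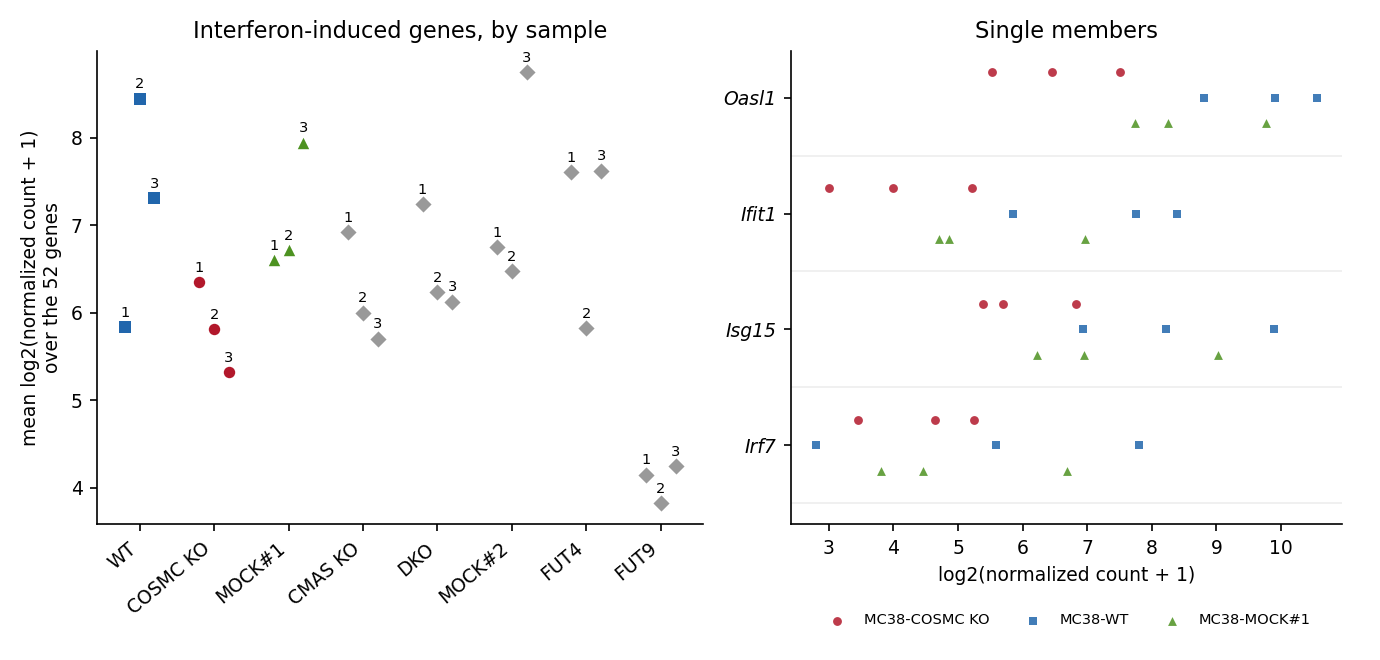
Left, the average log2 level (value plus 1) of 52 interferon-induced genes (vertical axis) for the 3 samples, numbered, of each of the 8 lines (horizontal axis). Right, the values of 4 members (vertical axis) in the samples of 3 lines on the same log2 scale (horizontal axis). MC38-WT samples 2 and 3 are above the knockout line at 8.45 and 7.31, MC38-WT sample 1 is within it at 5.83, and MC38-FUT9 is lowest.

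MHC class I molecules present peptides to T cells, and their genes respond to interferon as well. Of 23 genes of MHC class I presentation, 17 had a negative log2 fold change, against 45.1% of all genes tested. The median was -0.21, and none passed. Psmb8, an immunoproteasome subunit gene, had 263, 210 and 148 normalized counts in MC38-COSMC KO and 229, 522 and 298 in MC38-WT (log2 fold change -0.71, limma adjusted p = 0.358). Pdia3, part of the peptide loading complex, had 9144, 9002 and 8655 against 11652, 8862 and 11964 (-0.26, limma adjusted p = 0.369). The heavy chain genes H2-K1 and H2-D1, picked after their values were seen, changed by -0.08 (standard error 0.169) and -0.06 (standard error 0.166), and B2m, the light chain, by -0.21 (standard error 0.185). Their values overlapped between MC38-COSMC KO and MC38-WT, and without MC38-WT sample 2 the sign turned for all 3 genes. Against MC38-MOCK#1 the log2 fold change was -0.58 for B2m (limma adjusted p = 0.0218) and -0.48 for H2-D1 (limma adjusted p = 0.0244). H2-K1 did not pass there (-0.40, limma adjusted p = 0.108). Heavy chain genes are close copies of each other, so that the assignment of reads among them is uncertain.

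Chemokines and cytokines of tumour cells gave 0 DEGs among 26 tested (median -0.22), against 0.581% of all genes tested. In the fit of all 8 lines 1 was higher and 4 were lower, against 2.29% and 2.03% of all genes tested. Ccl5, which attracts T cells, had 8, 2 and 2 normalized counts in MC38-COSMC KO and 28, 207 and 100 in MC38-WT (log2 fold change -4.29, standard error 0.742, limma adjusted p = 0.0536). Vegfc, a growth factor of lymphatic vessels, had 40, 35 and 20 against 102, 128 and 75 (-1.68, limma adjusted p = 0.0688). Both were without overlap between the lines and passed in the fit of all 8 lines (limma adjusted p = 0.00128 and 0.000511). Of 17 checkpoint and co-stimulatory ligands none passed (median -0.05). Lgals3, which encodes galectin-3, had 10744, 9563 and 9691 against 5832, 7820 and 5785 (0.64, standard error 0.126, limma adjusted p = 0.0822), and Cd276 had 79, 59 and 61 against 89, 157 and 107 (-0.79, limma adjusted p = 0.194). Of these ligands Lgals3 alone passed in the fit of all 8 lines (limma adjusted p = 0.000759).

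Secreted factors and receptors outside these lists were found among the DEGs and are named here after their values were seen. Il1rl1, the receptor of interleukin-33, rose to 3341, 3876 and 4543 normalized counts in MC38-COSMC KO from 1779, 2028 and 2264 in MC38-WT (log2 fold change 0.95, standard error 0.13, limma adjusted p = 0.0273). Il18rap, a subunit of the interleukin-18 receptor, fell to 852, 761 and 741 from 1605, 2301 and 2072 (-1.33, standard error 0.134, limma adjusted p = 0.00998). Il13ra1, which binds interleukin-13, fell to 178, 144 and 135 from 268, 465 and 405 (-1.28, limma adjusted p = 0.0471). Secreted factors with fewer normalized counts in the knockout line were Bdnf, Ptn, Nrg1 and Apln. Bdnf, a neurotrophin, had 44, 46 and 60 against 134, 144 and 164 (-1.55, limma adjusted p = 0.0163), Ptn, which encodes pleiotrophin, had 137, 102 and 66 against 377, 515 and 447 (-2.17, limma adjusted p = 0.0162), and Nrg1, a ligand of ErbB receptors, had 72, 66 and 68 against 145, 155 and 129 (-1.04, limma adjusted p = 0.0303). Apln, the ligand of the apelin receptor on endothelium, had 27, 24 and 29 against 99, 82 and 79 (-1.66, limma adjusted p = 0.0178). The antiangiogenic Serpinf1 was lower too, with 39, 24 and 29 against 85, 160 and 92 (-1.81, limma adjusted p = 0.0488). Ahr, the receptor of dioxin and tryptophan derivatives, had 722, 651 and 534 against 970, 1201 and 1094 (-0.78, limma adjusted p = 0.0488), whereas Tiparp, known as a target of Ahr, had 1266, 1435 and 1403 against 678, 800 and 921 (0.78, limma adjusted p = 0.0355). Cd109, a membrane protein that binds TGF-beta, had 727, 655 and 585 against 401, 386 and 368 (0.76, limma adjusted p = 0.026). Casp1, the protease of inflammasomes, had 38, 21 and 29 against 85, 150 and 156 (-2.10, limma adjusted p = 0.0333). Against MC38-MOCK#1, Bdnf, Apln, Il18rap, Ahr and Cd109 did not pass (limma adjusted p = 0.216 to 0.806). Il1rl1, Il13ra1, Ptn, Nrg1, Serpinf1, Tiparp and Casp1 passed there in the same direction (limma adjusted p = 0.000207 to 0.0448).

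The lists of growth, metabolism and signalling given here held 0 DEGs each. Over all genes tested 0.581% were DEGs, so that a list of this size is likely to hold none. None of 35 cell cycle genes passed (median 0.02), and the 2 with the smallest p were E2f1 with 1234, 1142 and 1151 normalized counts in MC38-COSMC KO and 1557, 1505 and 1368 in MC38-WT (log2 fold change -0.33, limma adjusted p = 0.131) and Ccne1 with 279, 261 and 292 against 370, 353 and 355 (-0.37, limma adjusted p = 0.138). None of 21 p53 target genes passed (median 0.07), with Trp53 itself at 2455, 2821 and 3144 against 2119, 2149 and 2092 (0.40, limma adjusted p = 0.129) and Phlda3 at 0.47 (limma adjusted p = 0.237). Of 31 genes of glycolysis and the hypoxia response 24 had a negative log2 fold change, against 45.1% of all genes tested. This list had a median of -0.22 and 0 DEGs. Pdk1, which restrains the entry of pyruvate into mitochondria, had 605, 514 and 441 against 869, 1173 and 876 (-0.90, limma adjusted p = 0.0527), and the glucose transporter gene Slc2a3 had 13, 11 and 19 against 1, 2 and 0 (3.04, limma adjusted p = 0.056). The list of 32 cholesterol and fatty acid synthesis genes also had 0 DEGs (median -0.10), led by Fdft1 with 1240, 1159 and 1117 against 1807, 1548 and 1569 (-0.48, limma adjusted p = 0.0642) and Mvd (-0.42, limma adjusted p = 0.137). None of 32 MAPK feedback and immediate early genes passed (median -0.03), where Dusp4 had 416, 371 and 298 against 464, 640 and 510 (-0.57, limma adjusted p = 0.168) and Areg 150, 131 and 98 against 158, 392 and 291 (-1.07, limma adjusted p = 0.184). None of 19 Wnt targets and feedback genes passed (median 0.00), where Tcf7 had 159, 174 and 168 against 110, 115 and 107 (0.59, limma adjusted p = 0.092) and Dkk2 0, 0 and 1 against 2, 13 and 10 (-2.62, limma adjusted p = 0.141).

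**Figure D4:**
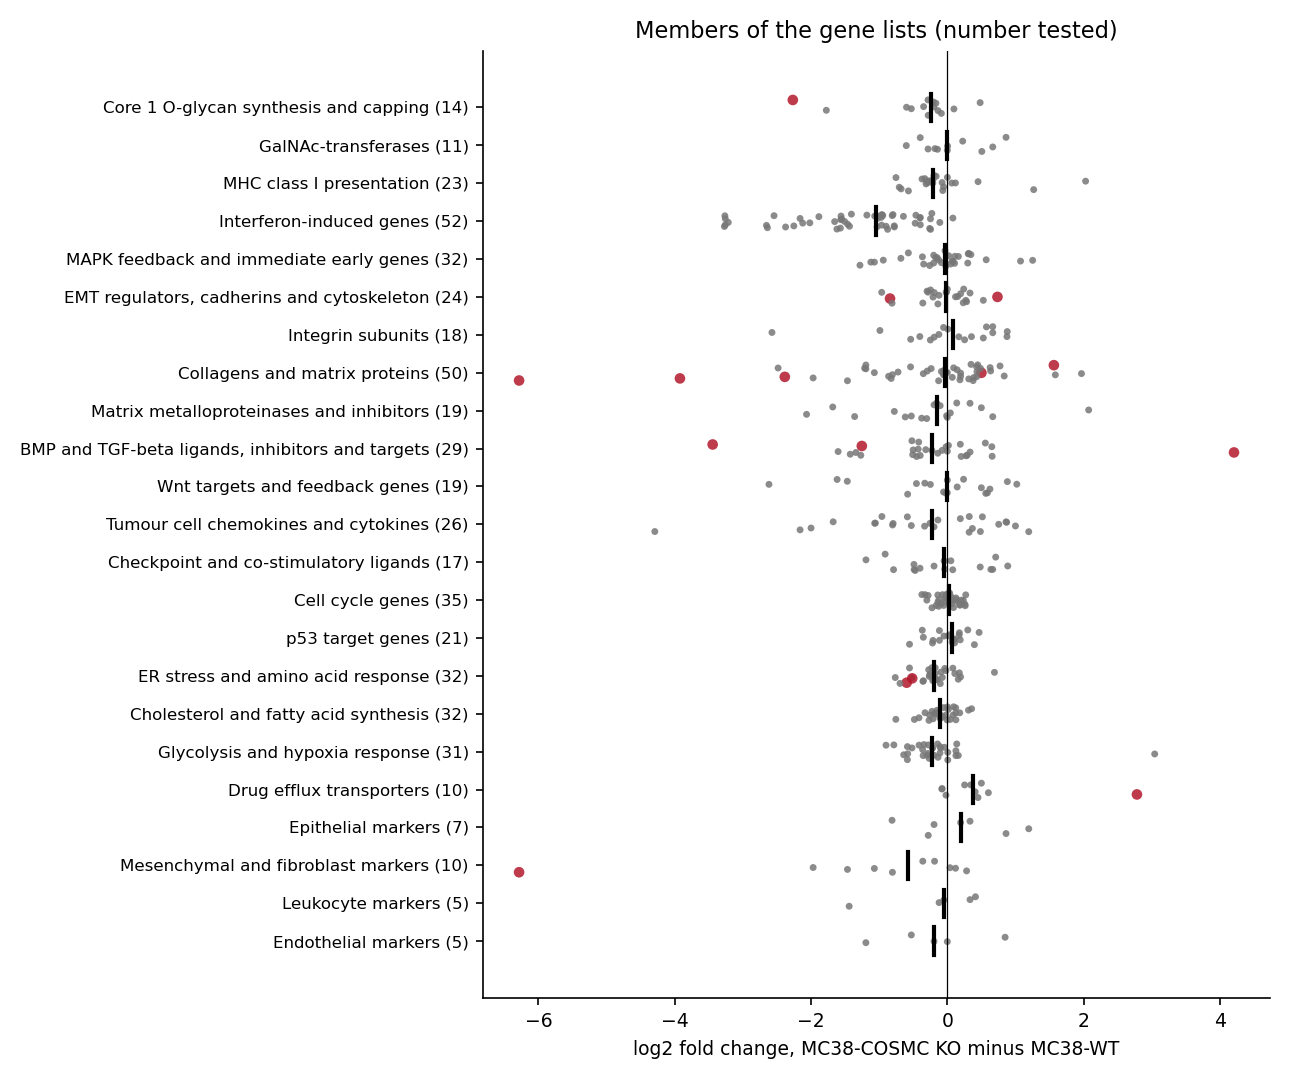
Log2 fold changes between MC38-COSMC KO and MC38-WT (horizontal axis) of the tested members of 23 gene lists (vertical axis, number tested in brackets), one point per gene with random vertical scatter. Red points are DEGs, grey points are not, and black bars are list medians. The interferon-induced genes lie almost wholly below 0 with a median of -1.05 and no red point, while most other medians are near 0.

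By position, the genes of chromosome 10 stood out. Among 649 of its genes with a mean of at least 10 normalized counts, 81.5% were higher in MC38-COSMC KO, against 52.2% over all 13480 such genes, and 241 were higher without overlap (12.2% over all chromosomes). The median log2 fold change was 0.22, and it was between 0.13 and 0.28 in each of the 12 windows of 10 Mb with at least 20 genes. Against the MC38-WT mean, the median of the chromosome was 0.24, 0.22 and 0.22 in the knockout samples, -0.02, 0.03 and 0.00 in the wild-type samples and -0.12, -0.09 and -0.08 in MC38-MOCK#1. It was also above 0 in MC38-FUT4, a line with Fut4 overexpressed by CRISPR-dCas-VPR, at 0.17, 0.16 and 0.17, and in MC38-CMAS KO, where Cmas is targeted, at 0.10, 0.09 and 0.04. Of the 21843 genes tested, 1070 lay on this chromosome, and of the 127 DEGs 9 higher genes and Dcn did. Over all genes tested 0.229% were higher and 0.353% lower DEGs. Myl6, a myosin light chain gene, had 3097, 2767 and 2947 against 1713, 1976 and 1532 (log2 fold change 0.76, limma adjusted p = 0.0265), and Btbd11 had 1140, 1148 and 1075 against 566, 544 and 557 (1.01, standard error 0.0749, limma adjusted p = 0.00493). Pcnt, which encodes the centrosome protein pericentrin, had 1635, 1725 and 1779 against 1207, 1056 and 1187 (0.58, limma adjusted p = 0.0303). With every sample centred on its own median for each chromosome, 5 higher and 5 lower genes of chromosome 10 passed the threshold. Over all 21843 genes tested, 70 higher and 118 lower genes passed in that fit. Myl6, Btbd11 and Pcnt were picked after their values were seen.

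**Figure D5:**
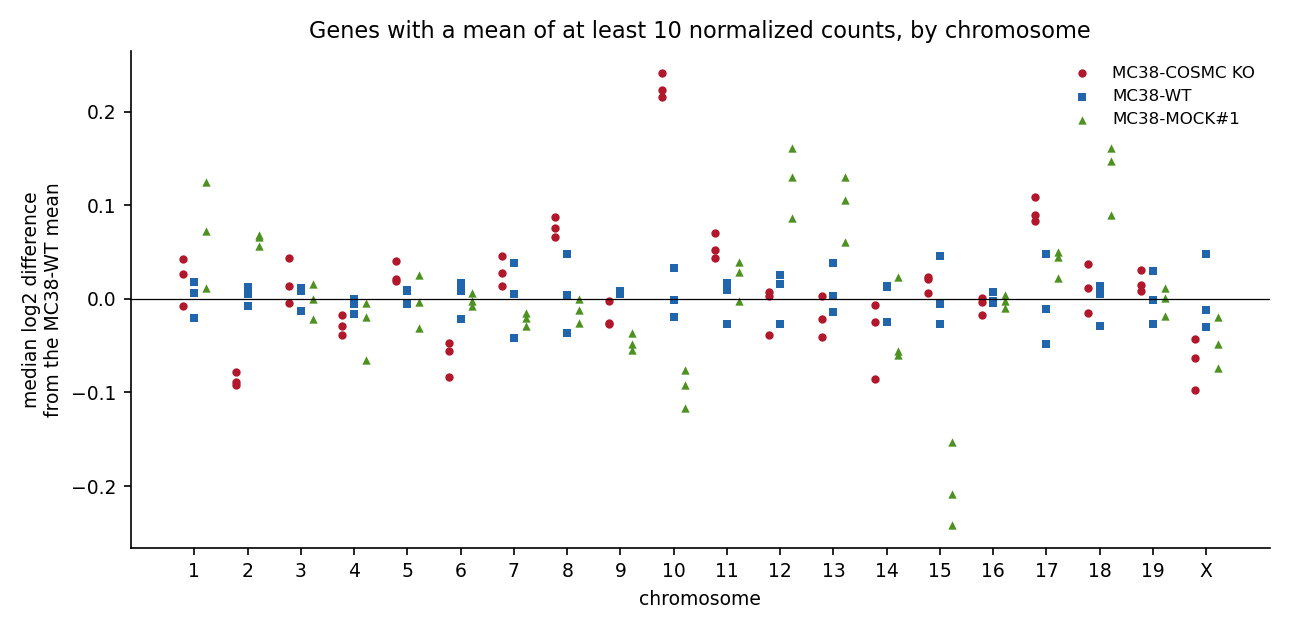
Median log2 difference from the MC38-WT mean (vertical axis) of the genes that averaged 10 or more normalized counts, by chromosome (horizontal axis), for each of the 3 samples of MC38-COSMC KO (red circles), MC38-WT (blue squares) and MC38-MOCK#1 (green triangles). Chromosome 10 in the knockout samples, at 0.22 to 0.24, lies above all other red points, and the green points of chromosome 15 are the lowest of MC38-MOCK#1.

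MC38-MOCK#1 lay nearer to MC38-WT for 64 of the 127 DEGs and nearer to MC38-COSMC KO for 63. It was at or past the wild-type mean for 32 and past the knockout mean for 22. The comparison of MC38-COSMC KO with MC38-MOCK#1 shares the knockout samples with the present one, and its log2 fold change for C1galt1c1 was -0.73 (limma adjusted p = 0.0128). Loss of C1galt1c1 can also be read in cells that lack Cmas, the enzyme that activates sialic acid, by comparing the line that targets both genes (MC38-DKO) with MC38-CMAS KO. That comparison uses other samples. C1galt1c1 RNA did not pass there (log2 fold change 0.01, limma adjusted p = 1). Of the 127 DEGs 124 could be tested in it, where 6.93% of all genes passed. In the same direction 24 passed, in the opposite direction 18, and 82 did not pass, while by sign alone 53 moved in the same and 71 in the opposite direction. The difference between both changes was fitted as well and passed for 5.92% of the 21275 genes in that fit, but the DEGs were chosen by one of its terms, so it is no independent test for them. Gcnt4 had -2.27 here and 0.30 in the Cmas deficient cells (difference -2.57, limma adjusted p = 4.34e-05). Slc4a5 was lower in both comparisons, with -3.49 and -3.06, and the difference of -0.43 did not pass (limma adjusted p = 0.781).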

How the data were processed

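Total RNA of MC38 lines was sequenced as stranded mRNA libraries with single reads. Per the study's methods the authors trimmed the reads with Sickle, aligned them to GRCm38 with HISAT2 2.0.4, processed them with SAMtools 0.1.19 and counted them per gene with featureCounts (Subread 1.5.0-p3), leaving out reads that overlap several genes. In the deposited table the authors give a score per gene and sample, that is the count scaled by library size and a TMM factor (edgeR 3.18.1) and rounded to a whole number. Since they are no raw counts, log2-transformed values (pseudocount 1) were tested here with limma 3.58.1 under R 4.3.3, where eBayes shrank the variances towards a trend over the mean, with the 3 samples of either line, no covariate and the Benjamini-Hochberg adjustment, and an adjusted p below 0.05 called a DEG. The planned count test gave way to limma for this reason. A gene needed at most 4 zeros in the 6 samples. Fold changes on this scale understate the change of low genes.

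The difference between MC38-COSMC KO against MC38-WT and MC38-DKO against MC38-CMAS KO was tested as a contrast over 12 samples, leaving out genes with more than 8 zeros. On simulated data for the comparison of MC38-COSMC KO with MC38-WT, limma called 142 of 200 genes changed 2-fold (21041 genes, 0 false calls), 185 of 200 changed 4-fold (21085 genes, 3 false calls) and 0 of 21080 unchanged genes. The changed genes were drawn only from those with a mean of at least 10, and genes varied independently of each other. The recovery therefore does not cover lower genes, and the false calls do not cover variation that genes share. Reads per library were inferred from which whole numbers occur among low values, which on simulated data with 10 factors was off by at most 0.036%. Python 3.11.15, numpy 2.4.6, pandas 2.3.3, scipy 1.17.1 and matplotlib 3.10.9 were used for the other steps, and 52403 of 52636 identifiers were matched to a symbol.

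The genes and the 24 gene lists (607 genes) were chosen with earlier results of these data known. With 0.581% of all genes tested called, a list of this size is likely to hold 0 DEGs, so that such a count is no result about the list. Named genes are C1galt1c1, C1galt1 and the 12 DEGs of either direction with the largest change. These 12 had a name other than Gm or Rik, no overlap and a mean of at least 30 in the higher line. Also named are up to 4 DEGs of each list (or the 1 or 2 members with the smallest p). The last are up to 6 DEGs per direction whose knockout values lie beyond all 21 other samples. Others are said to be picked after their values were seen, among them Cdh1, Krt8, Krt18, Vim, Gcnt1, St3gal1, Atf4, Ddit3, Col4a1, Col4a2, Col3a1 and Col1a2. Results that need withheld items, among them 1 of the 12 lower genes, are not reported here. An exact permutation test of 3 samples against 3 cannot go below p = 0.1 and was not used.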

Additional observations from a re-analysis of the deposited data

Results flagged for a closer look

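The change between MC38-COSMC KO and MC38-WT was set against that between MC38-DKO and MC38-CMAS KO, which use different samples, and the difference passed the limma test for 1259 of 21275 genes. Of the 37 named DEGs, 27 were among them, a count that the choice of DEGs by one of both changes favours and that is given as a description only. For the genes that were higher in MC38-COSMC KO the log2 difference was 6.80 for Sorcs2, 4.12 for Lmo1, 3.82 for Bmp5, 3.56 for Slc47a1, 3.33 for Hectd2, 3.27 for Fbln2, 2.23 for Ptpn18, 1.97 for Slc5a1, 1.78 for Dnhd1, 1.74 for Slc6a17 and 1.09 for Trpv2. In this group Sorcs2 fell in the cells without Cmas (log2 fold change -4.65, limma adjusted p = 0.0013) and Hectd2 did so as well (-1.61, limma adjusted p = 0.00771), opposite to the comparison with MC38-WT. For Cdh2, which rose in both comparisons, the difference was -1.14, with 0.74 against MC38-WT and 1.87 in the cells without Cmas.

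For the genes that were lower in MC38-COSMC KO the log2 difference was -5.75 for Kcnj2, -4.68 for Dcn, -4.19 for Stra6, -3.72 for Bmper, -3.03 for Sema5a, -2.91 for Megf10, -2.73 for Tmem176b, -2.57 for Gcnt4, -2.53 for Klhl13, -2.04 for Prkg2, -1.84 for Pcdh18, -0.71 for Cald1, -0.69 for Mthfd2 and -0.52 for Asns. Kcnj2 rose in the cells without Cmas (log2 fold change 2.24, limma adjusted p = 0.00251), as did Prkg2 (0.47, limma adjusted p = 0.0342). Grem1 fell in both comparisons, by -1.25 against MC38-WT and -2.62 in the cells without Cmas, with a difference of 1.36. The numerators differ from the denominators also in line history, so that these differences cannot be told apart from differences between the lines.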

How the results depend on the processing

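The 127 DEGs kept their direction under each alternative tried, and those tested had an unadjusted p below 0.05 in each. They were chosen on the same samples, which favours this outcome, so it is given as a description only. The number called changed with the processing and with the samples used. It was 110 to 163 with a pseudocount of 0.5 or 5, no further filter on low values or another scaling, and 180 (80 higher) with a mean of at least 10 as the filter. It was 92 without a mean-variance trend, with 62 higher and 30 lower, of which 39 are among the 127. With voom on estimated reads it was 219 (89 higher, 130 lower), and with chromosome medians removed, chosen after seeing the data, 188 (118 lower). An absolute log2 fold change above 1 left 28 higher and 60 lower DEGs. All 8 lines in a single fit gave 945 (501 higher, 444 lower). Leaving out a single sample left 0 DEGs without MC38-COSMC KO sample 1 or 3 or MC38-WT sample 2 or 3, 1 (higher) without MC38-COSMC KO sample 2 and 33 (14 higher, 19 lower) without MC38-WT sample 1, with 2288 to 3652 genes at an unadjusted p below 0.05. In these fits fewer samples were used.

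The fit of all 8 lines was also repeated without single samples, an alternative chosen after seeing the data. Without MC38-COSMC KO sample 1, 2 or 3 it gave 778 (378 higher, 400 lower), 454 (227 and 227) and 413 (221 and 192), and without MC38-WT sample 1, 2 or 3 it gave 952 (426 and 526), 830 (482 and 348) and 533 (262 and 271), with 114 to 121 of the 127 among them. Replicate numbers mark different passages in both lines, and samples of the same number correlated by -0.193, -0.0425 and -0.0569 across 13480 genes. With 3 samples per line and no reference value, these correlations cannot decide whether samples of the same number share a batch. A shared batch was not tested in another way. The replicate block left 0 DEGs (0 higher, 0 lower), while 2390 genes had an unadjusted p below 0.05, and it gave 1283 genes for the difference between both changes.

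For the 1259 genes whose change differed from that of MC38-DKO against MC38-CMAS KO (712 higher, 547 lower), the count was 675 (418 and 257) without a trend, 1883 with all 8 lines (831 lower), 571 (330 and 241) with an absolute difference above 1, and 741 to 1657 without single samples (443 to 944 higher, 298 to 713 lower), lowest without MC38-COSMC KO sample 2 and highest without MC38-WT sample 2. It also fell by more than 1.5 times without MC38-COSMC KO sample 3 (772) or MC38-DKO sample 2 (820). Signs turned, without single samples, for genes that were never called, in the fits with 6 samples and with all 8 lines alike. The log2 fold change of Cd68 then lay between -0.055 (without MC38-WT sample 1) and 0.85. That of Cdh1 lay between -0.24 (without MC38-WT sample 1) and 0.72, with -0.069 without MC38-COSMC KO sample 2 or 3. Without MC38-WT sample 2 it was 0.25 for Irf7, 0.0071 for B2m, 0.11 for H2-K1 and 0.15 for H2-D1, and the lowest values, without MC38-WT sample 1, were -2.24, -0.40, -0.25 and -0.19. The causes were not tested.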
